A study of Homo sapiens with 4 samples.

Results

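The genes described here encode the factors that start and extend protein chains on the cytoplasmic ribosome. They are the protein-coding genes whose symbols begin with EIF1 to EIF6 or with EEF1 or EEF2, without the eIF2 kinases, the eIF4E-binding proteins and 1 further gene, which gave 61 of the 16174 genes listed. The set also takes in genes that carry such a symbol without being subunits, such as the methyltransferases that modify eEF1A and eEF2 and the kinase EEF2K. In initiation, the ternary complex of eIF2, GTP and initiator tRNA binds the small ribosomal subunit with eIF1, eIF1A, eIF3 and eIF5, and the eIF4 factors bring this complex to the capped end of the mRNA. After each round eIF2B, a nucleotide exchange factor, reloads eIF2 with GTP. In elongation, eEF1A delivers aminoacyl-tRNA, the eEF1B complex recharges eEF1A, and eEF2 moves the ribosome along. In embryonic stem cells overall protein synthesis is known to be held low compared with many of their differentiated progeny, and vertebrate mRNAs of elongation factors belong to the class that begins with a run of pyrimidines.

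The values come from H9, an established human embryonic stem cell line, grown in the primed state. All cells had been transfected with a piggyBac vector for tetracycline-controlled dCas9-BFP-KRAB, a Cas9 without nuclease activity joined to a blue fluorescent protein and a repressor domain, and had been selected with puromycin. They also carried either 4 pooled guides against the long non-coding RNA gene SNHG26 or non-targeting control guides, and every culture received doxycycline. Cells were harvested on day 2 or day 3 of doxycycline, and each guide arm gave 1 library per day. The labels describe no single-cell cloning, so the cultures may be mixtures of cells with different insertions. An arm therefore has 1 library of each day, a mean ± SD is over n = 2 libraries, and p-values measure only the spread between these libraries, day included, because nothing states that they came from separate cultures.

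SNHG26 itself, on chromosome 7 from 22853869 to 22913785, stood at 0 and 0.933 TPM with its guides on day 2 and day 3, against 2.98 and 4.03 TPM with control guides. TPM here is a read number divided by a length in the genome, introns included, and scaled to a common sum in each library. It therefore raises short genes over long ones. For 20.6% of the genes above 0 the values equal whole reads on the full length of the gene. For the others the length used is not known and may be that of shorter transcripts. The libraries were shallow, at an estimated 436341 to 553323 reads. The embryonic stem cell label held against its markers: 11 of 12 were listed, 10 of them above 0 in every library, POU5F1 stood at 1050 to 1212 TPM, ZIC2 was at 0, and the summed level was 1786 and 2024 TPM with the SNHG26 guides and 1926 and 2182 TPM with control guides. Of the 7 fibroblast markers 4 were listed and 3 were above 0 in every library, and they summed to 65.1 to 96.3 TPM, mostly THY1, a surface protein that primed stem cells also carry. Of the 12 markers of differentiating cells only 3 were listed. MIXL1 was at 1.98 TPM in the control library of day 3 and at 0 elsewhere, EOMES and FOXA2 were at 0 throughout, and the other 9 are not analysed here. The fibroblast sum was highest in that same library, and its part in the results was not tested. In bulk RNA, fewer cells of a kind and less RNA per cell cannot be told apart.

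A known sequence feature of many of these genes is the start of their transcripts. RefSeq starts (GRCh38.p14) were found for 49 of the 61 genes. A start was called a pyrimidine start when its first base is C and the next 4 bases are each C or T, read on the transcript's strand only. Of the 49 genes, 13 (26.5%) had such a start. Counted by start, 13 of their 66 starts (19.7%) did, against 4.07% of all 35116 starts in the table. Among genes with enough signal to be tested below, the shares were 13 of 43 (30.2%) for these factors and 522 of 6118 (8.53%) for all genes. The sequences shown are those of 6 abundant factors with such a start, followed by 3 abundant factors without one and by EIF4G1, the gene with the largest guide difference. For a gene with several RefSeq starts, a matching start was printed where there was one, otherwise the start nearest the gene's listed start. Each window holds 15 bases before and 15 bases from the start, and capitals mark the unbroken run of C and T from the start in the genes that match.
EEF2 (chr19:3985449-3985478, minus strand): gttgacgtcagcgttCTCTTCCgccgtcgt
EEF1B2 (chr2:206159880-206159909, plus strand): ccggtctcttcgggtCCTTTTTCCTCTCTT
EEF1A1 (chr6:73521018-73521047, minus strand): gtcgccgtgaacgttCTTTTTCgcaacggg
EIF4A2 (chr3:186783562-186783591, plus strand): gttgggcgccgctgtCTTTTCagtcgggcg
EIF3D (chr22:36529152-36529181, minus strand): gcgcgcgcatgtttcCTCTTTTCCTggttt
EIF2S3 (chrX:24054941-24054970, plus strand): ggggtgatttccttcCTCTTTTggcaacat
EIF1 (chr17:41688870-41688899, plus strand): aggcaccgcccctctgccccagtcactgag
EIF4A1 (chr17:7572810-7572839, plus strand): aggcgggcactccgccctagtttctaagga
EIF1B (chr3:40309692-40309721, plus strand): tcggccattttgtgcgagaagccgcagcgc
EIF4G1 (chr3:184314591-184314620, plus strand): tctgtgcggggagccggaaatggttgtgga

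The run in EEF2 and EEF1A1 is 7 bases long, in EIF3D it is 10, and in EEF1B2 it fills the 15 bases of the window and continues past it. The paralogs EIF4A1 and EIF4A2, both helicases that unwind mRNA leaders, differ in this feature. The printed start of EIF4A2 has a run of 6 pyrimidines and that of EIF4A1 has 3. The printed start of EEF1A1 lies 4555 bases inside the gene as listed, so the letters belong to the RefSeq transcript and not to the listed boundary. The 13 genes with a pyrimidine start had a median level of 71.9 TPM per span, and the 35 others with a value had a median of 15.1 TPM. A match describes the letters at a RefSeq start and does not say where these cells started transcription.

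**Figure D1:**
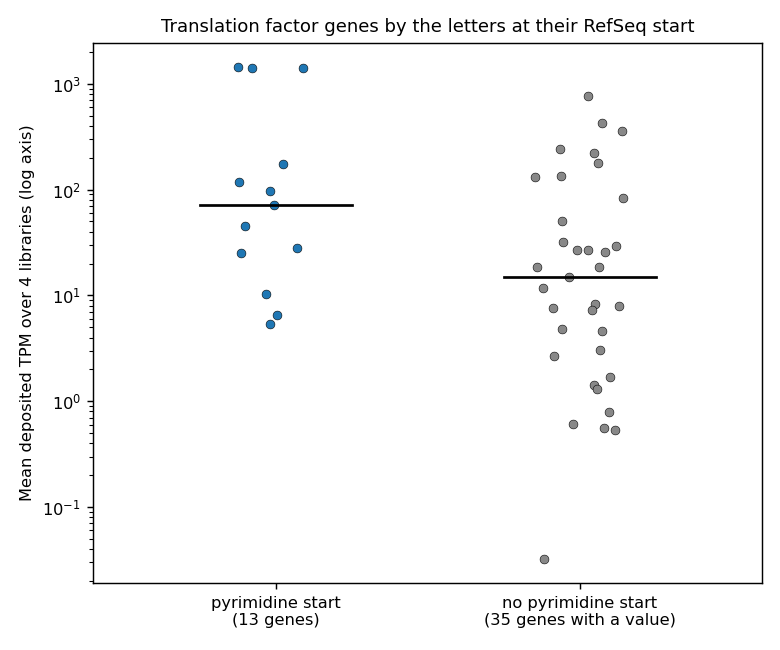
Mean deposited TPM over the 4 libraries (log axis) of each translation factor gene with a RefSeq start. Genes are split by whether any of their RefSeq starts has C followed by 4 pyrimidines. Each point is a gene and each bar a median. The 13 genes with a pyrimidine start have a median of 71.9 TPM and include EEF2, EEF1B2 and EEF1A1, and the 35 without have a median of 15.1 TPM.

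Translation factors were among the better measured genes. Of the 61, 53 had a value in every library, 7 were at 0 in some and EIF4E3 was at 0 in all. Their median level was 23.3 TPM, against 1.54 TPM for protein-coding genes with a value. Their mean was at least 100 TPM for 16 genes, 10 to 100 TPM for 21 and 1 to 10 TPM for 15, and these 52 were tested. The other 9 (EIF4E1B, EIF4G3, EIF2B3, EEF2K, EIF3CL, EEF1A2, EEF1AKMT1, EIF4ENIF1 and EIF4E3) had a mean below 1 TPM. Together the 61 held 0.879% and 0.969% of the summed TPM with the SNHG26 guides on day 2 and day 3, and 0.892% and 0.887% with control guides. Longer genes had lower levels (Spearman correlation -0.47 over the 61 genes), on a scale that itself divides by a genomic length. Between 5152 and 6964 estimated reads per library lie behind the whole set.

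Elongation factors made up the larger part of the set by summed TPM, but the smaller part by estimated reads, in every library. The 8 genes of the eEF1 and eEF2 lists held 54.4% and 57.4% of the summed TPM of the set with the SNHG26 guides on day 2 and day 3, and 54.8% and 61.2% with control guides. Here and below, a pair of values gives day 2 and then day 3, and the SNHG26 guides come before the control guides. EEF2, the translocase, stood at 1113 and 1741 TPM with the SNHG26 guides and 1195 and 1692 TPM with control guides. EEF1B2, a nucleotide exchange subunit of eEF1B, stood at 1426 and 1519 TPM against 1438 and 1294 TPM. EEF1A1, which carries aminoacyl-tRNA, stood at 1363 and 1256 TPM against 1454 and 1538 TPM. The order of these 3 changed from library to library, and their ranges overlapped. EEF1D, another exchange subunit, stood at 424 and 489 TPM against 375 and 434 TPM. EEF1G, the structural subunit of eEF1B, stood at 211 and 270 TPM against 187 and 216 TPM. EEF1E1, an auxiliary component of the multisynthetase complex, also called AIMP3, stood between 21.5 and 34.7 TPM. EEF1A2, the paralog typical of neurons and muscle, was at 1.73 TPM in the day 2 library with the SNHG26 guides and at 0 in the other 3, so EEF1A1 held 99.9% to 100% of eEF1A in every library.

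**Figure D2:**
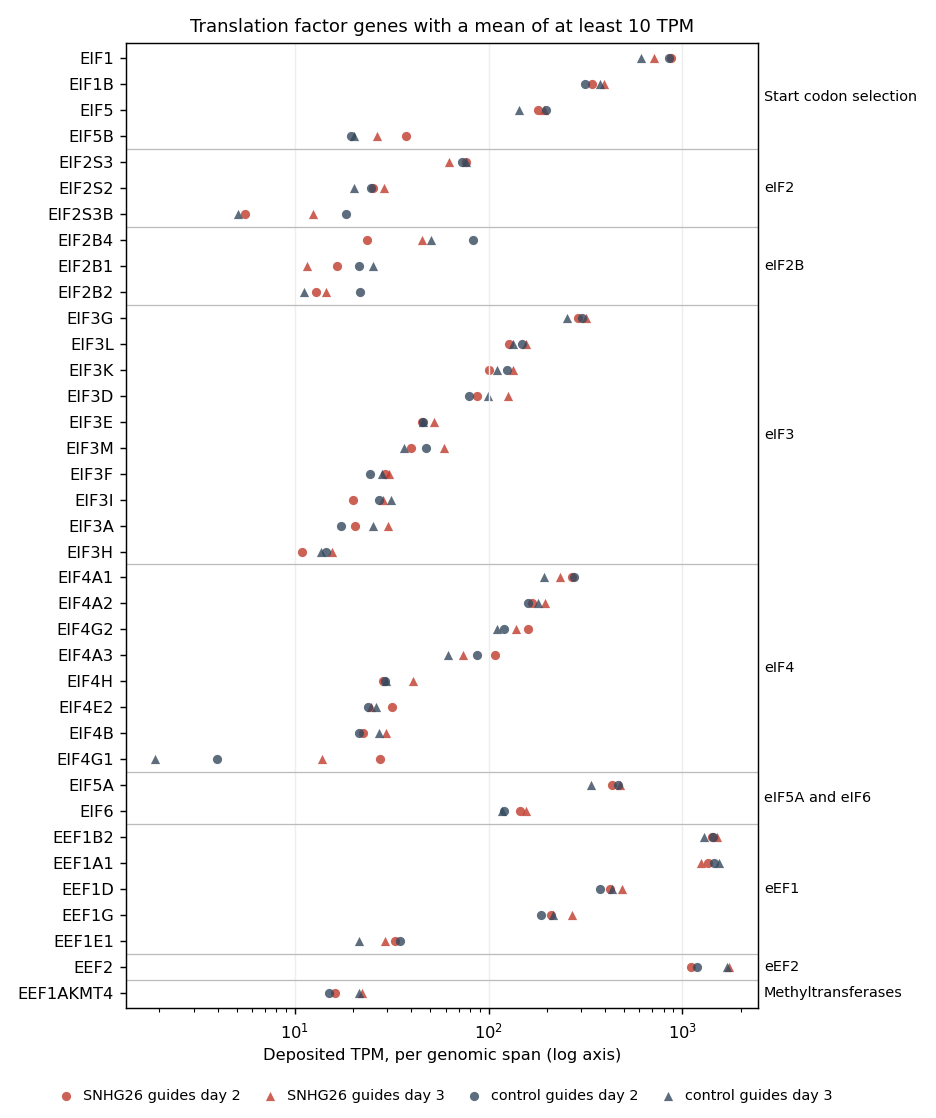
Deposited TPM per genomic span (log axis) of the 37 translation factor genes whose mean reaches 10 TPM, in role groups; red marks are SNHG26 guides, dark marks control guides, circles day 2 and triangles day 3. EEF2, EEF1B2 and EEF1A1 lie to the right of every other factor, and EIF4G1 is the gene whose red and dark marks lie farthest apart.

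The knockdown comparison asked which of these genes differed between SNHG26 guides and control guides. None of the 52 tested genes passed an adjusted p of 0.05 (limma with Benjamini-Hochberg adjustment over 8274 genes, smallest 0.652 for EIF4G1), and 0.0% of all genes did. EIF4G1 was the 1 factor with an unadjusted limma p under 0.05, where 4.07% of all genes had one. On the scale of log2(TPM + 1), on which the differences of low genes come out too small, 34 factors were higher and 18 lower with the SNHG26 guides, with a median of 0.12. Over all genes tested 53.3% were higher and the median was 0.04. The median of the factors was -0.04 on day 2 and 0.22 on day 3, and it became -0.0085 when the day 3 library with the SNHG26 guides was left out. Of the 52, 28 moved the same way on both days, which is 53.8%, against 51.2% of all genes that moved.

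**Figure D3:**
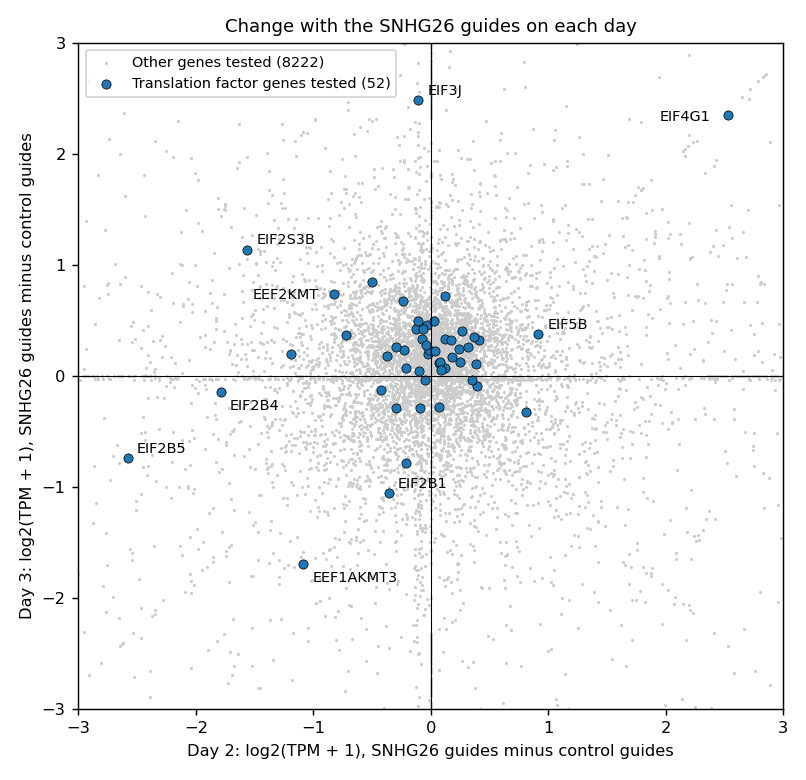
Difference between SNHG26 guides and control guides in log2(TPM + 1) on day 2 (x axis) and day 3 (y axis), 1 point per gene tested, translation factors in blue; 802 other genes lie outside the axes, which end at 3. EIF4G1 lies alone among the factors at the upper right, EIF2B1 lies at the lower left with EIF2B4 near the x axis, EIF2B2 lies at the upper left, and 28 of the 52 factors lie in the quadrants of equal sign.

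The 2 libraries of 1 arm lay wholly above those of the other for 8 factors higher with the SNHG26 guides (15.4%, where 16.1% of all genes did) and for 6 lower (11.5%, where 13.2% did). These shares are near those of all genes. The 8 were EIF4G1, EIF4G2, EIF5B, EIF6, EIF3F, EIF2S1, EIF2S2 and EIF2A. The 6 were EIF2B1, EIF2B4, EIF2B5, EIF3C, EEF1A1 and EEF1AKMT3, of which EIF2B5 and EEF1AKMT3 reached the filter only through the control arm.

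EIF4G1, the scaffold that joins the cap-binding protein eIF4E, the helicase eIF4A and eIF3, had the largest difference of the 52. The gene runs from 184314495 to 184335358 on chromosome 3 (plus strand). It stood at 27.6 and 13.7 TPM with the SNHG26 guides and at 3.96 and 1.90 TPM with control guides, 20.7 ± 9.82 against 2.93 ± 1.45 (SD, n = 2). Both libraries with the SNHG26 guides lay above both control libraries, and day 2 lay above day 3 in each arm. The log2 difference was 2.44 (SE 0.52), with 2.53 on day 2 and 2.35 on day 3 (limma unadjusted p = 0.0085, adjusted p = 0.652), and 1.96 to 2.92 with any 1 library left out. EIF4G1 has 38 transcripts in GENCODE release 29, the shortest with a span of 630 bases. Its TPM equals 79.1 and 43.9 reads with the SNHG26 guides if all reads lie on the full span, and 2.39 and 1.33 reads if all lie on the shortest transcript. A change between transcripts of different span can move this TPM at equal reads, and it was below 20 estimated reads, so it was not among the 33 factors tested at that depth. At that depth 0 factors had an unadjusted p under 0.05, and 3.35% of all 2451 genes did.

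Of the other scaffolds, per span, EIF4G2 was the more abundant in every library and EIF4G3 the less abundant. By estimated reads EIF4G3 held 16.6% and 18.7% of the 3 genes' reads with the SNHG26 guides and 25.9% and 0% with control guides. On that scale EIF4G1 held 18.3% and 11.3%, and 3.76% and 2.73%, so their order was not the same in every library. EIF4G2, also called DAP5, a scaffold that lacks the part binding eIF4E, stood at 160 and 138 TPM with the SNHG26 guides and 120 and 110 TPM with control guides. The arms did not overlap, and the log2 difference was 0.37 (SE 0.19, limma adjusted p = 0.935). EIF4G3 was at 0.805, 0.730, 0.876 and 0 TPM, in the order SNHG26 guides day 2 and day 3, then control guides day 2 and day 3. As a share of the 3 genes' TPM, EIF4G1 held 14.7% and 8.98% with the SNHG26 guides and 3.16% and 1.69% with control guides. An exact two-sided permutation test of that share gave p = 0.33, the smallest that 2 libraries against 2 allow. This share is free of the scaling between libraries but not of a change between transcripts.

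All 9 tested genes of the eIF4 list were higher with the SNHG26 guides by the mean of the arms, with a median log2 difference of 0.17, and none passed the adjusted test. Their summed level, with the 4 others of the list, was 819 and 758 TPM against 726 and 631 TPM, a log2 ratio of 0.22 (exact permutation p = 0.33, the smallest possible). Leaving out the control library of day 3 brought that ratio to 0.12. Apart from EIF4G1 and EIF4G2 the arms overlapped for every tested gene of the list. EIF4A1 stood at 269 and 235 TPM against 276 and 193 TPM, and EIF4A2 at 168 and 194 TPM against 160 and 179 TPM. EIF4A3, the helicase of the exon junction complex, stood at 108 and 73.8 TPM against 87.2 and 61.6 TPM. The cap-binding protein EIF4E was low per span, at 1.76 and 4.20 TPM against 2.91 and 1.89 TPM. By estimated reads EIF4E held 13.9% and 33.1% of its family against 26.2% and 17.3%. Its paralog EIF4E2, which binds caps and is known for repressing translation, stood at 31.6 and 24.6 TPM against 23.8 and 26.4 TPM. EIF4B and EIF4H, cofactors of the helicase, had log2 differences of 0.09 and 0.21. Below the test, EIF4E1B was at 3.16 TPM in the day 3 library with the SNHG26 guides and at 0 elsewhere, EIF4ENIF1, the transporter of eIF4E, was at 0.129 TPM in that same library and at 0 elsewhere, and EIF4E3 was at 0 throughout.

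In the exchange factor eIF2B, 3 subunits passed the filter without depending on 1 arm, and each was lower with the SNHG26 guides by the mean of the arms. None passed the adjusted test. The arms were apart for EIF2B1 and EIF2B4, in a set whose share of such genes (11.5%) was below the 13.2% of all genes. EIF2B1, the alpha subunit, stood at 16.6 and 11.6 TPM against 21.5 and 25.2 TPM, a log2 difference of -0.71 (SE 0.32, limma adjusted p = 0.935). EIF2B4, the delta subunit, stood at 23.5 and 45.5 TPM against 83.6 and 50.4 TPM, a log2 difference of -0.97 (SE 0.46, limma adjusted p = 0.935). The day 2 control library of EIF2B4 was far above the other control library, and without it the difference was -0.61. Without the day 2 library with the SNHG26 guides it was -0.50. EIF2B5, the catalytic epsilon subunit (chromosome 3, 184135038 to 184146127, plus strand), was listed at 0 in both libraries with the SNHG26 guides and at 4.97 and 0.675 TPM with control guides, so it passed the filter through the control arm alone and no fold change is given. The same locus is overlapped on the opposite strand by EIF2B5-DT, a non-coding gene listed at 2.99 and 0.343 TPM with the SNHG26 guides and at 0 in both control libraries. Whether reads were counted by strand is not given in the sources used here, so reads of these overlapping genes cannot be told apart.

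EIF2B2, the beta subunit, overlapped between the arms, at 12.8 and 14.6 TPM against 21.8 and 11.1 TPM. EIF2B3, the gamma subunit, was below the test at 0.593 and 0.562 TPM against 0.582 and 0.518 TPM. Summed over the 5 subunits the level was 53.4 and 72.2 TPM with the SNHG26 guides and 132 and 87.8 TPM with control guides. Both sums with the SNHG26 guides lay below both control sums, with a log2 ratio of -0.81 (exact two-sided permutation p = 0.33, the smallest possible) and -1.08 to -0.48 with any 1 library left out. EIF2B4 was the largest part of each sum. Few reads lie behind these subunits, with mean estimated reads of 40.5 for EIF2B4, 24.2 for EIF2B1 and 6.81 for EIF2B2.

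**Figure D4:**
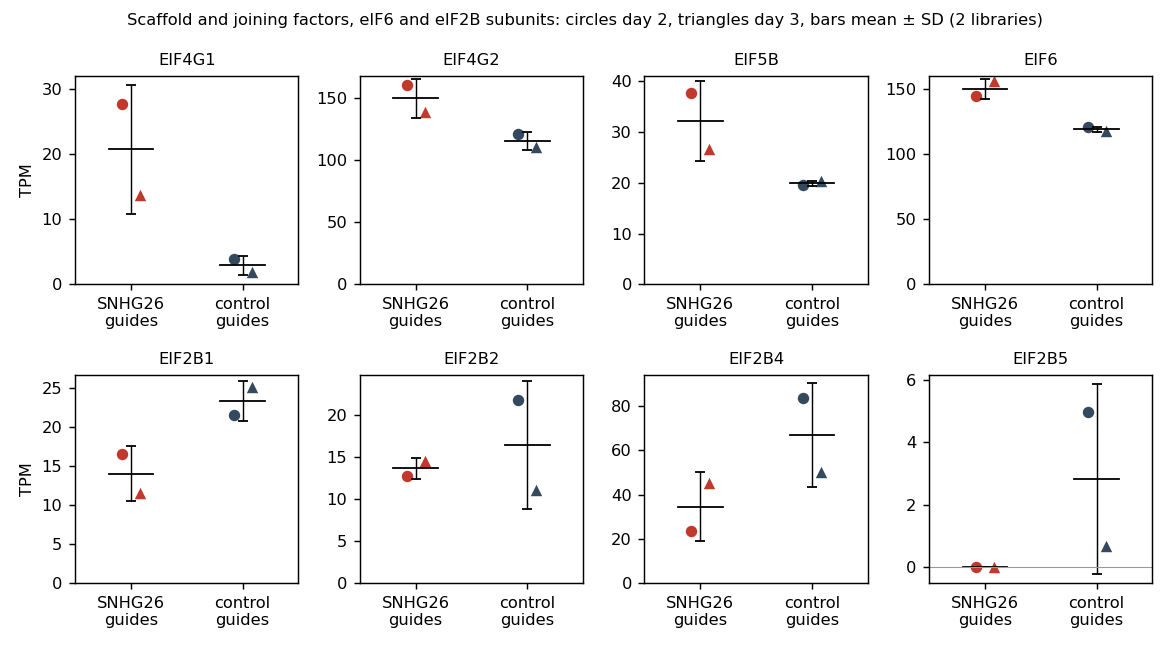
TPM in each library of 4 factors that were higher on both days with the SNHG26 guides and of the 4 tested eIF2B subunits; circles are day 2, triangles day 3, and bars the mean ± SD of 2 libraries, with axes from 0 or just below it. The arms are apart in every panel except EIF2B2, and EIF2B5 is at 0 in both libraries with the SNHG26 guides.

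The substrate of eIF2B is eIF2, and its summed level differed between the arms by less than the spread between the control libraries. In TPM the arms were apart for EIF2S1, EIF2A and EIF2S2 (25.3 and 28.9 TPM against 24.8 and 20.2 TPM), each higher with the SNHG26 guides. They overlapped for the other genes of the eIF2 list. The 6 genes of the eIF2 list, which include the alternative initiation factors EIF2A and EIF2D, summed to 128 and 127 TPM against 133 and 120 TPM, a log2 ratio of 0.02. EIF2S2, the beta subunit, is a gene whose values are whole reads, with 83 and 106 reads (95% Poisson intervals 66.1 to 103 and 86.8 to 128) against 74 and 72 reads (58.1 to 92.9 and 56.3 to 90.7). Such intervals cover counting error only, and these overlap between the arms. They do not cover reads that may be shared with the pseudogene EIF2S2P4, listed at 9 and 23 reads against 14 and 14 reads. EIF2S1, the alpha subunit phosphorylated under stress, stood at 8.28 and 10.3 TPM against 7.51 and 5.90 TPM. EIF2S3, the tRNA-binding gamma subunit, had a log2 difference of -0.11, and its retrocopy EIF2S3B stood at 5.53 and 12.4 TPM against 18.3 and 5.10 TPM.

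Among the factors that choose the start codon and join the subunits, EIF5B differed most. EIF5B, the GTPase that joins the large subunit, stood at 37.7 and 26.5 TPM against 19.5 and 20.3 TPM, a log2 difference of 0.64 (SE 0.30, limma adjusted p = 0.935). The arms did not overlap, and the difference was 0.91 on day 2 and 0.37 on day 3. The mean of EIF5B was 16.1 estimated reads, below the filter of 20 estimated reads. EIF1, which guards start codon choice, stood at 876 and 711 TPM against 856 and 611 TPM, and its paralog EIF1B at 341 and 394 TPM against 313 and 376 TPM. EIF5, the GTPase activator of eIF2, stood at 181 and 194 TPM against 197 and 144 TPM, and EIF1AX, the eIF1A of the X chromosome, at 18 and 18 reads against 17 and 18 reads. For EIF1, EIF1B, EIF5 and EIF1AX the arms overlapped. EIF1AD, a protein with an eIF1A-like domain, stood at 3.90 and 2.89 TPM against 10.2 and 2.39 TPM.

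EIF6, which keeps the large subunit from joining too early, stood at 145 and 156 TPM against 121 and 118 TPM. Its arms did not overlap, with a log2 difference of 0.33 (SE 0.18, limma adjusted p = 0.935) that was 0.28 to 0.39 with any 1 library left out. EIF5A, which helps the ribosome through difficult peptide bonds, stood at 432 and 477 TPM against 465 and 338 TPM, with overlapping arms. It held 96.5% to 99.0% of the TPM of its family. EIF5A2 stood at 1.67 and 1.21 TPM against 0.525 and 1.77 TPM. The retrocopy EIF5AL1 stood at 5.60 and 13.4 TPM against 4.11 and 10.3 TPM, which is 3, 8, 2 and 6 reads.

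The scaffold complex eIF3 was mixed, with 8 of its 13 tested genes higher and 5 lower and a median of 0.08. EIF3G, an RNA-binding subunit and the most abundant per span, stood at 290 and 319 TPM against 305 and 253 TPM. EIF3C, a core subunit, stood at 6.04 and 7.31 TPM against 7.65 and 9.18 TPM, and EIF3I, a beta-propeller subunit, at 20.001 and 28.6 TPM against 27.1 and 31.2 TPM. EIF3C was lower in both libraries with the SNHG26 guides (log2 difference -0.30) and EIF3I was lower on each day with overlapping arms (-0.27, and -0.03 without the day 2 library with the SNHG26 guides). EIF3J, the loosely bound subunit, stood at 2.85 and 6.04 TPM against 3.14 and 0.262 TPM, with a difference of -0.10 on day 2 and 2.48 on day 3. These values of EIF3J rest on a mean of 2.76 estimated reads. The other tested subunits overlapped between the arms apart from EIF3F, which stood at 29.1 and 30.5 TPM against 24.4 and 28.0 TPM. Among them EIF3L ranged from 127 to 156 TPM over the libraries, EIF3K from 101 to 133 TPM, EIF3E from 45.2 to 52.6 TPM, EIF3M from 36.5 to 58.7 TPM and EIF3H from 10.9 to 15.6 TPM. EIF3CL, a near copy of EIF3C, stayed below 1 TPM.

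In elongation the summed level of eEF1 differed by less than the spread between libraries with the SNHG26 guides, at 3459 and 3562 TPM against 3490 and 3504 TPM (log2 ratio 0.0058). Within it, EEF1A1 was lower with the SNHG26 guides in both libraries, with a log2 difference of -0.19 (SE 0.11, limma adjusted p = 0.935), while EEF1B2, EEF1D, EEF1G and EEF1E1 had differences of 0.11 to 0.25 with overlapping arms. EEF2 had a log2 difference of -0.03 that turned sign when 1 library was left out. Of the methyltransferases of eEF1A and eEF2, EEF1AKMT3 stood at 0.734 and 0 TPM against 2.68 and 2.25 TPM, on a mean of 1.72 estimated reads. It passed the filter through the control arm alone, so no difference is given. EEF2KMT, which methylates eEF2, stood at 3.38 and 9.32 TPM against 6.77 and 5.19 TPM, EEF1AKMT2 at 2.21 and 0.412 TPM against 2.71 and 1.44 TPM, and EEF1AKMT4 at 20 and 31 reads against 17 and 29 reads, all with overlapping arms. EEF1AKMT1 had 1 read, in the control library of day 3, and EEF2K, the kinase that inhibits eEF2, had 6 and 4 reads against 4 and 11.

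The day comparison set both day 3 libraries against both day 2 libraries, and its values are given as day 3 against day 2, first for the SNHG26 guides. No factor passed an adjusted p of 0.05 (limma, smallest 0.337 for EEF2), and 3 of all genes did (0.0363%). An unadjusted p under 0.05 was reached by EEF2, EIF1, EIF5AL1 and EIF3B, 4 of 52, where 6.61% of all genes reached it. In the fit with a replicate block for the guide arm 2 factors did, but the share of all genes in that fit is not given here. Among the 33 factors with at least 20 estimated reads 2 did, where 9.42% of all such genes did. On day 3, 27 factors were higher and 25 lower, with a median of 0.05 against 0.01 over all genes.

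EEF2 was higher on day 3 in both arms, at 1741 against 1113 TPM with the SNHG26 guides and 1692 against 1195 TPM with control guides. Its log2 difference was 0.57 (SE 0.10, limma unadjusted p = 0.00457, adjusted p = 0.337), and 0.52 to 0.62 with any 1 library left out. EIF1 was lower on day 3 in both arms, at 711 against 876 TPM and 611 against 856 TPM, a log2 difference of -0.39 (SE 0.13, limma unadjusted p = 0.0395, adjusted p = 0.713). EIF3B, the subunit that anchors the eIF3 scaffold, was at 6.53 against 2.53 TPM and 6.15 against 3.10 TPM, a log2 difference of 0.95 (limma adjusted p = 0.673). These values of EIF3B rest on a mean of 3.45 estimated reads. For EIF5AL1 the log2 difference was 1.13 (limma adjusted p = 0.596) on 2 to 8 reads per library.

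Day 3 lay wholly above day 2 for 13 of the 52 factors, where 17.1% of all genes did, and wholly below for 7, where 18.4% did. The 13 were EEF2, EEF1D, EEF1G, EIF1B, EIF4A2, EIF4B, EIF4H, EIF3A, EIF3B, EIF3D, EIF3I, EEF1AKMT4 and EIF5AL1. The 7 were EIF1, EIF4A1, EIF4A3, EEF1E1, EIF1AX, EIF1AD and EEF1AKMT2. In eIF3, 11 of the 13 tested genes were higher on day 3 by the mean of the days, where 50.7% of all genes were. Each of the 13 was higher on day 3 with the SNHG26 guides. With control guides EIF3E, EIF3G, EIF3H, EIF3J, EIF3K, EIF3L and EIF3M were lower on day 3 and the others higher. EIF3A, the largest eIF3 subunit, stood at 30.2 against 20.5 TPM and 25.4 against 17.2 TPM. EIF3D, a subunit that can bind caps, stood at 126 against 86.8 TPM and 99.9 against 79.6 TPM. Within each arm on its own, the median day difference of the factors was 0.18 with the SNHG26 guides and -0.10 with control guides, and 25 of the 51 that moved in both arms moved the same way (49.0%, against 53.9% of all genes).

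**Figure D5:**
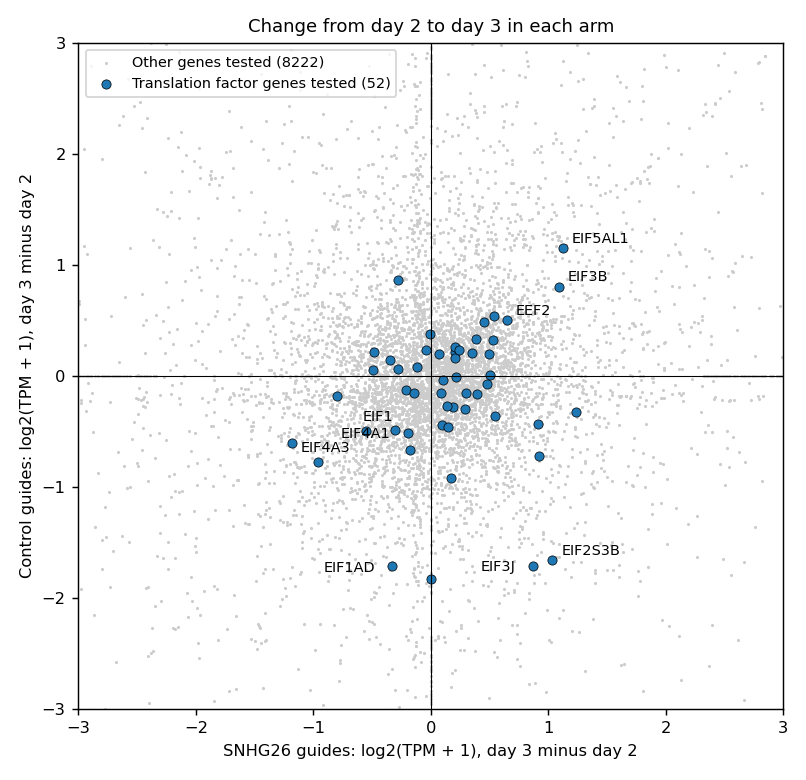
Difference between day 3 and day 2 in log2(TPM + 1) with the SNHG26 guides (x axis) and with control guides (y axis), 1 point per gene tested, translation factors in blue; 834 other genes lie outside the axes, which end at 3. EEF2, EIF3B and EIF5AL1 lie at the upper right, EIF1, EIF4A1 and EIF4A3 at the lower left, and 25 factors lie in the quadrants of equal sign.

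Some paralogs differed between the days in opposite directions. EIF4A1 was lower on day 3 in both arms (log2 difference -0.36) and EIF4A2 higher in both (0.19), so EIF4A1 held 61.5% of their summed TPM on day 2 and 54.7% on day 3 with the SNHG26 guides, and 63.4% and 51.9% with control guides. EIF1 and EIF1B did likewise, with EIF1 at 72.0% and 64.3%, and 73.2% and 61.9%. Between the guide arms both shares overlapped (exact two-sided permutation p = 1.0 for each). For EIF1B the day 3 values were 164 and 152 reads and the day 2 values 127 and 106 reads, in day 3 libraries that were also the deeper ones. In TPM, which allows for depth, they were 394 and 376 against 341 and 313. The share of EIF4E in its family had no such order, at 5.29% and 14.6%, and 10.9% and 6.71%. Reads of EIF4A1 are uncertain because the read-through gene SENP3-EIF4A1 and small nucleolar RNA genes overlap it on the same strand.

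The factors with a pyrimidine start had a median day difference of 0.12, with 9 of 13 higher on day 3, and those with a RefSeq start of another kind had a median of -0.14, with 12 of 30 higher. EIF4A2 and EIF4A1, whose starts are printed above, fall on these opposite sides, as do EEF2 and EIF1. So do EIF3D (0.43, with a pyrimidine start) and EIF4G1 (-0.87, without one). The other printed genes do not: EIF1B was higher on day 3 without a pyrimidine start, and EEF1B2 (-0.03), EEF1A1 (-0.02) and EIF2S3 (-0.11) were lower on day 3 with one. With the guides the medians were 0.10 and 0.15. No test of these medians was made.

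The guide difference was also compared between the days. No factor passed an adjusted p of 0.05 in limma (smallest 0.961), and 8 of all genes did (0.0967%). EIF2S3B alone had an unadjusted p under 0.05 (0.0154), where 3.52% of all genes did. Its order was opposite on the 2 days, below the control library on day 2 and above it on day 3.

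Other genes of the pathway were described from a list of 32, of which 27 were tested. With the SNHG26 guides 12 were higher and 15 lower, with a median of -0.03, and 0 passed an adjusted p of 0.05, as over all genes. An unadjusted limma p under 0.05 was reached by 1 of the 27, where 4.07% of all genes reached it. That gene was PABPC4, a poly(A)-binding protein that contacts eIF4G, at 86.5 and 50.3 TPM against 32.3 and 23.3 TPM, a log2 difference of 1.23 (limma unadjusted p = 0.0304, adjusted p = 0.935). Its arms did not overlap, and day 2 was the higher day in each arm, as for EIF4G1. PABPC1, the main poly(A)-binding protein, stood at 277 and 253 TPM against 316 and 298 TPM. Of the proteins that hold back eIF4E, EIF4EBP1 stood at 37.6 and 34.4 TPM against 39.0 and 24.5 TPM and EIF4EBP2 at 13.4 and 10.7 TPM against 11.2 and 11.3 TPM. EIF4EBP3 was the 1 gene of the 27 with an unadjusted limma p under 0.05 between the days, where 6.61% of all genes had one. It stood at 13.6 against 3.81 TPM and 31.6 against 4.19 TPM, day 3 against day 2. TPT1, also called TCTP and known for a pyrimidine start, was the most abundant per span, at 4847 and 4012 TPM against 4718 and 4314 TPM.

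Several of these genes have near copies, and reads can be split or shared between them. Of 19 listed pseudogenes named after members 18 had a value, and together they held 64 and 102 reads with the SNHG26 guides and 81 and 87 reads with control guides. Most belonged to EEF1B2P3, at 42 and 60 reads against 53 and 53 reads, so the level of EEF1B2 is uncertain by that sharing. The same holds for EIF2S2 with EIF2S2P4, EIF3C with EIF3CL, EIF5A with EIF5AL1, EIF2S3 with EIF2S3B and EEF1A1 with its copies. In all, 24 members overlap another listed gene on the opposite strand, among them EIF4G2 with CTR9, EIF5B with TXNDC9 and REV1, and EIF2B1 with GTF2H3 and DDX55.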

How the data were processed

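Gene-level TPM were deposited by the authors for 4 libraries of poly(A) RNA, read as PCR-amplified cDNA on nanopore flow cells (14 cycles, oligo-dT priming and strand switching, per the labels' protocols). The submitters' processing notes name minimap2 2.24-r1122 and GRCh38. The counting tool, annotation release, strand setting and filters are not given in the sources used here. No molecular identifiers are described, so intervals cover counting error only.

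The members and gene lists were chosen with earlier results of these data known. Depth was recovered from the TPM: 1 read on 10 kb of genomic span was worth 0.653 to 0.803 TPM, and the values of 2853 of the 13840 genes above 0 (20.6%) equal whole reads within 0.0001 read. Reads of other genes were estimated from the median transcript span of GENCODE release 29, or from the full or shortest span where said. No unit was constant across genes, so no count test was run. Changes were taken on log2(TPM + 1) for genes whose mean over the libraries was 1 TPM or more and tested with limma 3.58.1 in R 4.3.3 (eBayes with a trend), with Benjamini-Hochberg adjustment over 8274 genes and a threshold of 0.05. The code was tested on simulated data. The labels pair the arms by day of doxycycline. Over 8274 genes, libraries of the same day deviated from the mean of their arm with a correlation of 0.0464.

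Values per library were given for the 12 members with the highest mean, those with an unadjusted p under 0.05, the 5 each way with the largest guide change (mean of at least 5 TPM, alike on both days), the paralog families and members at 0 in a library. Other members and overlapping genes were named after their values were seen. Alternatives were a pseudocount of 0.1 or 5, filters at 5 TPM, at 20 estimated reads or at none, scaling by quantiles or by median ratios, dropping the eBayes trend, adding the replicate block, leaving out each library, and estimated reads in place of TPM for sums and shares. The block together with 20 estimated reads was chosen after seeing the data.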

Additional observations from a re-analysis of the deposited data

How the results depend on the processing

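No factor passed an adjusted p of 0.05 in limma under any alternative run, for the guides, the days or their difference (0 in each). Of 247 guide differences of named factors under settings that kept all libraries, 246 kept their direction. The exception was EIF1B under quantile normalization, at -0.00586. All 135 day differences kept theirs. The filters, the eBayes trend and the block cannot change the size of a difference. Only the pseudocounts and the 2 scalings could have turned a direction, so most of these values were fixed in advance. With day as a replicate block the guide count stayed at 0 adjusted and 1 unadjusted, and in the day comparison the block brought the unadjusted count to 2, as did 20 estimated reads and eBayes without a trend. The block changed no adjusted call. The unadjusted guide count was 2 with a pseudocount of 5, with no filter and with eBayes without a trend, and 0 with 20 estimated reads. Apart from 20 estimated reads, the shares of all genes under these alternatives are not given here, so these counts have nothing to be set against. With estimated reads in place of TPM the log2 ratio of summed eIF2 rose from 0.02 to 0.12. Among 108 guide differences with 1 library left out 19 changed sign, and among 56 day differences 6 did. The guide differences then ran from -0.35 to 0.29 for EEF2, -0.12 to 0.37 for EIF1, -0.036 to 0.43 for EIF5A, -0.036 to 0.23 for EIF1B, -0.0043 to 0.27 for EIF3G, -0.14 to 0.38 for EIF4A1, -0.073 to 0.37 for EIF5, -0.0069 to 0.20 for EIF4A2, -0.22 to 0.93 for EIF5AL1, -0.62 to 0.47 for EIF3B, -0.28 to 0.63 for EIF4E, -0.023 to 0.32 for EIF4E2 and -0.19 to 0.67 for EIF5A2. The day differences ran from -0.15 to 0.085 for EEF1B2, -0.16 to 0.13 for EEF1A1, -0.41 to 0.089 for EIF5A, -0.23 to 0.10 for EIF3G and -0.39 to 0.037 for EIF5. The log2 ratios of summed TPM ran from -0.0061 to 0.26 for start codon factors, 0.12 to 0.32 for eIF4, -0.37 to 0.27 for eEF2 and -0.37 to 0.15 for methyltransferases, and the guide difference in the share of EEF1A1 ran from -0.127 to 0 percentage points. With 1 library left out, the arm of 1 library is assumed to vary like the other, and the cause of these moves was not tested. Without a change of sign, the guide difference of EIF3I ran from -0.52 to -0.026. Depth limits the low genes most, and 33 of the 61 factors reached 20 estimated reads.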
